A study of Mus musculus with 2 samples.

Results

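The major urinary protein genes (Mup genes) were examined in single liver cells of mice on chow and on a diet labelled for non-alcoholic steatohepatitis (NASH). The genes described are 10 named members, Mup1, Mup2, Mup3, Mup7, Mup11, Mup16, Mup17, Mup18, Mup20 and Mup21, of 31053 gene entries and 21 Mup symbols in the files, and they were chosen by symbol, with UMI levels of these same libraries by diet and zone known, so every level below is a description and none carries a test. The study held 1 library from C57BL/6 mice fed chow and 1 from C57BL/6 mice fed the NASH diet, which was high in fructose, fat and cholesterol, with 6.5 weeks on either diet. Liver cells were freed with collagenase and separated on Percoll gradients that keep non-parenchymal cells and hepatocytes of several densities, and were sequenced with a droplet method in which each unique molecular identifier (UMI) stands for 1 captured RNA molecule. The sources used here do not give the age and sex of the mice or the number per library. The Y-linked gene Ddx3y had 3883 chow and 2535 NASH diet UMIs, and Xist, the transcript of the inactive X, had 2 and 1.

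Major urinary proteins belong to the lipocalins, small barrel-shaped proteins that hold hydrophobic ligands. Hepatocytes secrete them into the blood, the kidney passes them into the urine, and in mice they carry and release volatile pheromones. The genes lie in a tandem cluster, and in the mouse liver they are best known as targets of growth hormone and androgen signalling that are more active in males. Mup20 encodes darcin, a protein of male urine that attracts females. Along the liver lobule, blood runs from the portal vessels to the central vein, and many hepatocyte genes are active mainly near one end, a pattern called zonation.

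All 21 Mup genes lie on chromosome 4 of the mouse build GRCm38, from 59956804 to 62150863, a span of 2194 kb. The 7 members with nearly the same coding sequence, Mup1, Mup2, Mup7, Mup11, Mup16, Mup17 and Mup18, lie among other near-identical copies from 60066469 to 61674136. Mup20 (62050234 to 62054158), Mup3 (62083476 to 62087342) and Mup21 (62147932 to 62150863) lie together at the far end of the cluster, all 10 on the minus strand. Groups were drawn by linking genes with at least 95% identity of coding sequence, not by their counts. In coding identity to Mup11, the near-identical members ranged from 98.9% (Mup7) to 99.8% (Mup2 and Mup18), Mup20 had 91.3%, and Mup3 and Mup21 each had 84.7%, while Mup3 and Mup21 were 96.3% identical to each other. The stretch below, coding bases 214 to 273 in the numbering of Mup11, shows the groups side by side. It was chosen as the 60 bases in which Mup20, Mup3 and Mup21 differ most from Mup11, and capitals mark bases that differ from Mup11.
Mup11: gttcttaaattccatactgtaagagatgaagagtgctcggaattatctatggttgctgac
Mup2: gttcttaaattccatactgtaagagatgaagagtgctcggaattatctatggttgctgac
Mup17: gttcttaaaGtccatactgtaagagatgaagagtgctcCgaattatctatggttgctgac
Mup16: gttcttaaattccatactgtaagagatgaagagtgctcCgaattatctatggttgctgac
Mup20: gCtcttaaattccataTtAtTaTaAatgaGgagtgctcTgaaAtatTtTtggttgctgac
Mup3: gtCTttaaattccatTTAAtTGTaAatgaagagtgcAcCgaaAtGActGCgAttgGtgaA
Mup21: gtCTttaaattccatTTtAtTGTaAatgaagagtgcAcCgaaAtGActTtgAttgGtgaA
In this stretch Mup20 differed from Mup11 at 11 bases, Mup3 at 20 and Mup21 at 18, Mup7 and Mup17 at 2, Mup16 and Mup18 at 1, and Mup1 and Mup2 at 0.

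Reads of this assay come from the 3' ends of transcripts, so the likeness of those ends sets how well the counts of single members can be told apart. In GENCODE M21 transcripts, stretches of 90 bases in the last 300 bases were compared with all other genes. Of these stretches, 100% were found in no other gene for Mup20, Mup3 and Mup21, and 88.6% for Mup17. The share was 40.1% for Mup1, 30.8% for Mup18, 30.3% for Mup11, 15.4% for Mup16, 4.73% for Mup7 and 0% for Mup2. By these annotated transcripts the counts of Mup20, Mup3, Mup21 and, mostly, Mup17 can be read singly. Copies in the genome that are not annotated were not compared. Reads of the other members may have been lost or assigned to a sister gene. For this reason the 7 near-identical members are also given as 1 sum, which an exchange of reads among them leaves unchanged, although reads dropped as shared or assigned to copies outside the 10 members are not in it.

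RefSeq promoter windows (GRCm38.p6, 250 bases before the annotated start) were matched for 7 of the 10 members, Mup2, Mup3, Mup7, Mup11, Mup17, Mup18 and Mup21. Upstream identity to Mup11 was 99.6% for Mup17, 95.98% for Mup18, 86.5% for Mup3 and 84.9% for Mup21. The stretches below end in the letters TATATAA, in capitals, and are shown because members with unlike zonation, described below, share it.
Mup17: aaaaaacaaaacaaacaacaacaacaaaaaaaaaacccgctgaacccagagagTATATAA
Mup18: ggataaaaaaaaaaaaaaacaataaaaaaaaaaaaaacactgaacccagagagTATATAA
Mup3: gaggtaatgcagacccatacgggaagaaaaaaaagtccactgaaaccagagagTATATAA
Mup21: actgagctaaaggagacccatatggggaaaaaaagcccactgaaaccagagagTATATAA
They lie at chr4:61595851-61595910, chr4:61674116-61674175, chr4:62087322-62087381 and chr4:62150843-62150902, each read on the minus strand. GENCODE M21 places the starts of these 4 genes further upstream than RefSeq does, so by GENCODE the last 21 bases of each stretch, the capitals included, lie inside the gene. The windows are upstream by RefSeq only. Searched on both strands, TATATAA was in 5 of the 7 upstream windows and in 3.04% of 32851 windows of all genes, and it was added to the search after the Mup windows had been read. In the Mup11 window the same letters run across the annotated start. The STAT pattern TTCNNNGAA was in 0 of 7 windows and 7.02% of all windows, TATAAA in 0 and 12.4%, CCAAT in 4 and 33.8%, and the C/EBP-like pattern TTNCGNAA in 1 (Mup21) and 2.04%. TATATAA and TATAAA do not overlap here, and a match or its absence describes only these letters in these windows.

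Hepatocyte-like cells were selected without any Mup gene, as barcodes with at least 200 genes, at least 5000 UMIs, at most 30% mitochondrial UMIs, at least 2% of UMIs in 12 hepatocyte markers and under 0.2% in markers of other liver cells. This gave 2000 cells of 7359 barcodes from chow and 1077 of 5881 from the NASH diet. They held 51291213 and 22887083 UMIs, and the median cell held 25805 and 20504. The median mitochondrial share was 18.4% and 23.3%. The levels of the markers follow from this selection and are no test of the label: the hepatocyte markers summed to 95233 and 101658 UMIs per 1000000 (CPM), the 8 Kupffer cell markers to 2.42 and 1.14 CPM, the 9 endothelial markers to 3.84 and 7.603 CPM, and the 5 cholangiocyte markers, led by Sox9, to 35.4 and 18.6 CPM. The libraries shared 69 barcode sequences, and 2 of these were hepatocyte-like in both. With 1 library per diet, diet and library cannot be told apart and no difference between diets was tested. Intervals are exact 95% Poisson intervals for counts and exact (Clopper-Pearson) binomial intervals for shares, and they cover counting error only.

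Summed over the family, Mup transcripts made up nearly the same share of hepatocyte RNA on both diets, but the makeup of that sum differed. The 10 members together had 40660.2 CPM (40605 to 40715) on chow and 38570.1 CPM (38489.6 to 38651) on the NASH diet, a log2 difference of -0.076. The 7 near-identical members together had 11838 CPM (11808 to 11867) on chow and 5499 CPM (5468 to 5529) on the NASH diet, a log2 difference of -1.11. Mup20, Mup3 and Mup21 together had 28823 CPM (28776 to 28869) on chow and 33071 CPM (32997 to 33146) on the NASH diet, a log2 difference of 0.20. All differences are NASH diet minus chow on the log2(CPM + 1) scale, and the median over all 7899 genes with a mean of at least 5 CPM was 0.13, so the family sum lay 0.20 below that median.

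Mup20, the darcin gene, was the most abundant member in both libraries, at 16331 CPM (16296 to 16366) on chow and 20300.4 CPM (20242 to 20359) on the NASH diet, a log2 difference of 0.31. Mup3 followed, at 12309 CPM (12279 to 12339.9) on chow and 12538 CPM (12492 to 12584) on the NASH diet, a log2 difference of 0.027. Relative to the median of all genes the Mup3 difference was -0.10, so its sign depends on that scaling. Mup21, the closest relative of Mup3 in sequence, was expressed far lower, at 182 CPM (178 to 186) on chow and 233 CPM (227 to 239) on the NASH diet, a log2 difference of 0.35. None of these 3 genes reached a 2-fold difference, and the counts of each can be told from those of the other members.

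The near-identical members were lower on the NASH diet, with 1 exception. Mup11 had 5906 CPM (5885 to 5927) on chow and 2437 CPM (2417 to 2457) on the NASH diet, a log2 difference of -1.28. Mup17, the member of this group whose 3' end is most its own, had 4092 CPM (4075 to 4109.9) on chow and 2088 CPM (2069.7 to 2107) on the NASH diet, a log2 difference of -0.97. Both were below Mup3 in both libraries. Mup7 had 1163 CPM (1154 to 1173) on chow and 646 CPM (635 to 656) on the NASH diet, a log2 difference of -0.85. Mup16 had 356 CPM (351 to 361) on chow and 118 CPM (114 to 123) on the NASH diet, with the lowest log2 difference of the family, -1.58. Mup1 stood at 261 CPM (257 to 266) on chow and 169.8 CPM (164 to 175) on the NASH diet, a log2 difference of -0.62. Mup18 stood at 57.8 CPM (55.7 to 59.9) on chow and 33.5 CPM (31.2 to 35.97) on the NASH diet, a log2 difference of -0.77. The exception, Mup2, had 58 chow and 135 NASH diet UMIs, or 1.13 CPM (0.859 to 1.46) on chow and 5.899 CPM (4.95 to 6.98) on the NASH diet. It did not pass the filter of 5 CPM, and none of the stretches at its 3' end is its own, so its count does not show how much Mup2 is expressed.

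Of the 10 members 9 passed the filter. At a 2-fold difference, 2 were lower on the NASH diet (Mup11 and Mup16) and 0 were higher. Over all genes 5.03% passed 2-fold in either direction, 2.15% lower and 2.87% higher. The median log2 difference of the 9 members was -0.77, beside 0.13 over all genes, with a range from -1.58 to 0.35. Of the 9 members 6 were below 0, beside 2664 of all 7899 genes that passed. These 6 were all near-identical members, which can exchange reads. In order of level, Mup20, Mup3, Mup11, Mup17, Mup7, Mup16 and Mup1 followed each other in chow, then Mup21, Mup18 and Mup2. Mup21 and Mup1 stood above Mup16 in NASH diet cells. Without replicate libraries there is no spread to set neighbours in this order against; their counting intervals did not overlap. UMIs count transcripts at their 3' ends and do not scale with transcript length, but the order among near-identical members also depends on how many of their reads could be assigned.

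**Figure D1:**
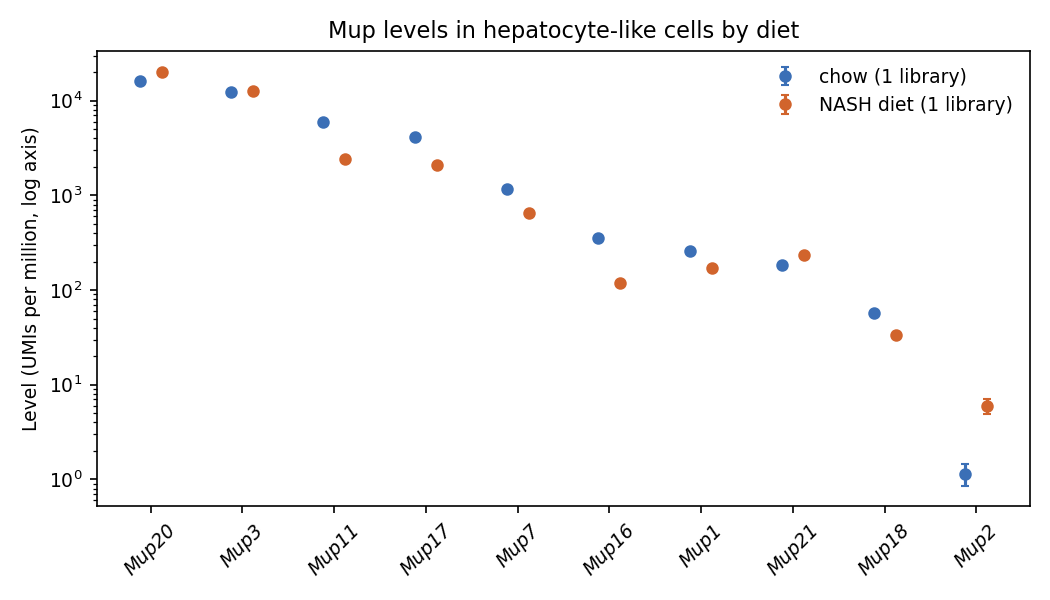
Level of each of the 10 members in hepatocyte-like cells (CPM, log axis) in the chow library (blue, 2000 cells) and the NASH diet library (orange, 1077 cells), with exact 95% Poisson intervals that cover counting error only and are smaller than most points. Mup20, Mup3 and Mup21 lie at or above their chow level on the NASH diet, Mup11, Mup17, Mup7, Mup16, Mup1 and Mup18 lie below it, and Mup2 is near the bottom of the axis in both.

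The 11 Mup symbols that are not members gave little to the sum, although Mup9 stood above the members Mup16, Mup1, Mup21, Mup18 and Mup2 in both libraries. The 8 near-identical copies among them summed to 662 CPM on chow and 541 CPM on the NASH diet, a log2 difference of -0.29. Only 4 of the 11 passed the filter, Mup9 at 394 and 311 CPM, Mup12 at 189 and 165 CPM, Mup14 at 50.05 and 40.5 CPM, and Mup10 at 16.8 and 17.7 CPM. With these copies in the sum, the near-identical genes still had a log2 difference of -1.05.

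Mup levels differed between ranges of the mitochondrial share, a sign of cell quality after digestion, and that share differed between the libraries. Among chow cells with a mitochondrial share up to 10%, 10 to 20% and 20 to 30% (156, 1162 and 682 cells), the near-identical members summed to 9365, 8363 and 19785 CPM and Mup20 to 7989, 18422 and 12837 CPM. Among NASH diet cells (126, 185 and 766 cells) the near-identical members had 3469.6, 6642 and 5388 CPM and Mup20 had 23063, 20341 and 19982 CPM. The near-identical members were lower on the NASH diet in each of the 3 ranges. Mup20 was higher there in each range, by the most in the lowest one. Summed over all 10 members, cells up to 10% held 26843 CPM on chow and 44814 CPM on the NASH diet, so that within this range the family sum was higher in the NASH diet library, opposite to the sum over all cells. Of the single members, Mup11 (-2.19), Mup17 (-1.62), Mup20 (1.53), Mup21 (1.42) and Mup3 (0.93) differed more between the diets in this range than over all cells (log2 scale). Mup16 (-0.83) differed less. Over all processing alternatives, Mup7 (-0.85 as reported) came as near to 0 as -0.28, and Mup1 (-0.62 as reported) as near as -0.20. The mitochondrial share also differed between zones of the lobule, as given below, so zone and cell quality cannot be told apart in these ranges. The part of either in the differences between diets was not tested.

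Position along the lobule was read from 12 pericentral markers, such as Cyp2e1 and Glul, and 14 periportal markers, such as Cyp2f2 and Hal, none of them a Mup gene. Each cell was thinned to 5000 UMIs, the score was log2((pericentral + 1)/(periportal + 1)), and the cells of a library were ranked into 3 groups of equal size called pericentral, middle and periportal. These are ranges of a score, not cell types: 280 chow cells (14%) and 134 NASH diet cells (12.4%) lay within 0.25 of a cut. Of 8 zone genes kept out of the score, the 4 known as pericentral were highest in the pericentral group in both libraries, and of the 4 known as periportal, Alb, Fbp1 and Cdh1 were highest in the periportal group and Cps1 in the middle one. Cyp3a11, a pericentral cytochrome P450, had 2197, 419 and 282 CPM in the pericentral, middle and periportal groups of the chow library, and 2993, 90.3 and 96.9 CPM in those of the NASH diet library. Periportal Alb, the albumin gene, had 11317, 29158 and 35437 CPM and 18263, 43545 and 52944 CPM. Median UMIs per cell were 25724, 24122 and 27239 in the chow groups and 23544, 18746 and 20159 in the NASH diet groups. The median mitochondrial share, in the same order, was 20.3%, 17.9% and 17.7% on chow and 22.1%, 23.7% and 24.0% on the NASH diet.

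Between the outer groups the near-identical members were higher on the pericentral side, and Mup20, Mup3 and Mup21 on the periportal side to unlike degrees. Mup3 and Mup21, close in sequence, differed from each other on the NASH diet, as given below. Reads exchanged among the near-identical members can make their directions alike. In the chow library the near-identical members together had 29349, 4449 and 1514 CPM in the pericentral, middle and periportal groups, a log2 difference of 4.28 between the outer groups, pericentral minus periportal. NASH diet cells gave 12641, 1511 and 607 CPM, a log2 difference of 4.38. Mup20 ran the other way, with 7059.7, 16313 and 25294 CPM in chow (-1.84) and 10925, 23178 and 28892 CPM on the NASH diet (-1.40). For each of the 10 members the counting intervals of the outer groups were apart in both libraries, although cells of 1 library share their source and are not replicates.

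Mup11 and Mup17 carried most of the pericentral excess. In chow, Mup11 had 14617, 2633 and 412 CPM, 35.4 times as much in the pericentral as in the periportal group, and Mup17 had 11620.4, 394 and 119 CPM, 97.5 times as much. Mup11 in NASH diet cells had 5792, 595 and 111 CPM, a ratio of 52.3, and Mup17 had 5351, 61.4 and 42.5 CPM, a ratio of 126. The periportal Mup17 level was below that in Kupffer-like barcodes (317 CPM on chow and 203 CPM on the NASH diet), a cell type that should lack Mup RNA. Periportal Mup11 was also below its Kupffer-like level on the NASH diet (249.5 CPM) and near it on chow (367 CPM). In endothelial-like barcodes Mup11 had 428 CPM on chow and 79.8 CPM on the NASH diet, and Mup17 had 335 and 53.2 CPM. Periportal Mup11 on the NASH diet was above that level, and periportal Mup17 was below it in both libraries. These background levels are sums, which a few barcodes with much hepatocyte RNA can raise. The ratios of both genes thus rest on periportal levels below or not far above those of other barcodes. In the cells with a mitochondrial share up to 10% the log2 difference between the outer groups was 4.11 for Mup11 and 4.64 for Mup17 on chow, against 5.14 and 6.59 over all cells. On the NASH diet it was 4.88 and 5.32, against 5.70 and 6.94. Between bins 1 and 10 of the cells, described below, it was 5.90 for Mup11 on chow and 7.59 for Mup17 on the NASH diet. The other near-identical members had the same direction with smaller ratios. In chow, Mup7 had 1886, 958 and 649 CPM (log2 difference 1.54), Mup16 678, 226 and 161 CPM (2.07), Mup1 418, 212 and 153 CPM (1.45) and Mup18 126, 26.4 and 19.8 CPM (2.62). Their log2 differences in NASH diet cells were 1.82, 1.55, 1.20 and 2.94.

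Mup3 differed less than 2-fold between the outer groups in both libraries. It had 10937, 12495 and 13469.6 CPM in the pericentral, middle and periportal groups of the chow library, a log2 difference of -0.30, and 10474, 13835 and 13819 CPM in those of the NASH diet library, a log2 difference of -0.40. Mup21 had 155, 182 and 207 CPM in chow (-0.42) and 133, 268 and 320.1 CPM on the NASH diet (-1.27), so that it leaned further to the periportal side on the NASH diet. In the cells with a mitochondrial share up to 10% the difference was -0.61 on chow and -1.14 on the NASH diet for Mup3, which is past 2-fold there, and -2.35 on the NASH diet for Mup20. Between bins 1 and 10 it was -1.13 on chow and -1.98 on the NASH diet for Mup21, and -2.33 on the NASH diet for Mup20. Summed over all 10 members these patterns nearly cancelled: the family had 47500.1, 33439 and 40486 CPM in chow (0.23) and 34172, 38792 and 43639 CPM on the NASH diet (-0.35). Without Mup20 in the sum the difference was 1.41 in chow and 0.66 in NASH diet cells.

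Between the outer groups, 6 members were at least 2-fold higher in the pericentral and 1 in the periportal group of the chow library, of 9 that passed the filter, against 2.29% and 1.76% of all 7740 genes that passed (4.04% in either direction). Among NASH diet cells 7 and 2 of 10 were, against 3.90% and 1.73% of 7932 genes (5.62% in either direction). The pericentral genes were the near-identical members and the periportal ones Mup20 and, on the NASH diet, Mup21. Mup2, counted on the NASH diet only, passed the filter there through its pericentral level (10.6 against 2.59 CPM), so the filter set its direction. Since the near-identical members can exchange reads, their counts are not independent of each other.

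In 10 bins of equal cell number along the score, from bin 1 at the periportal to bin 10 at the pericentral end, the 2 main near-identical members became abundant at different places. In the chow library Mup11 was at 442 CPM in bin 4, 1096 in bin 5, 2725 in bin 6, 8643 in bin 7 and 15888 in bin 9. Mup17 was still at 227 CPM in bin 6 and then at 1924 in bin 7, 7903 in bin 8, 14462 in bin 9 and 15205 in bin 10, where it matched Mup11 at 14914. Mup20 was at 27339 CPM in bin 1 and 24029.7 in bin 4, then 13359 in bin 6, 8384 in bin 8 and 5737 in bin 10. Both began further toward the pericentral end in NASH diet cells. Mup11 was at 256 CPM in bin 5, 1291 in bin 7, 4214 in bin 8 and 7078 in bin 10. Mup17 was at 94.1 CPM in bin 7, 2283 in bin 8, 6878 in bin 9 and 7420.4 in bin 10. Mup20 was at 29325 CPM in bin 5, 13147 in bin 9 and 5867 in bin 10. Bins are ranks within a library and need not mark the same place in the lobule in both.

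**Figure D2:**
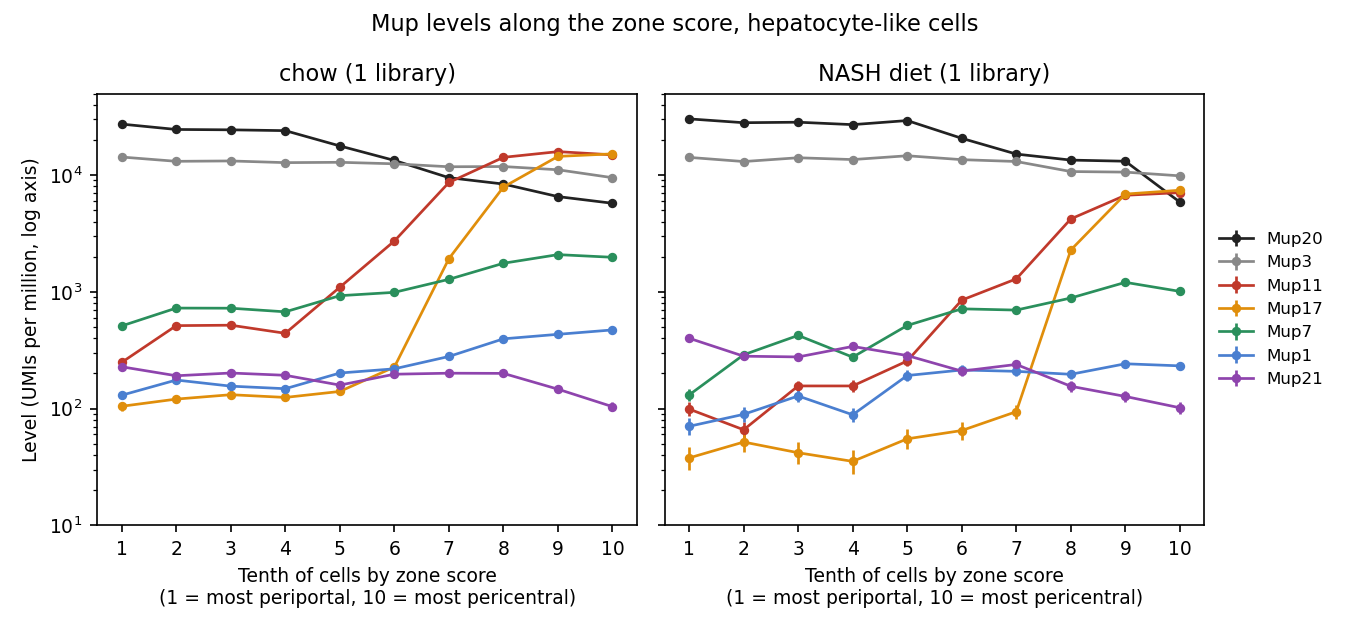
Level of 7 members (CPM, log axis) in 10 bins of equal cell number by zone score, for the chow library (left, 200 cells a bin) and the NASH diet library (right, 107 or 108 cells a bin), with exact 95% Poisson intervals. Mup11 (red) climbs from bin 5 and Mup17 (orange) from bin 7 in chow, each nearer the pericentral end on the NASH diet, while Mup20 (black) declines and Mup3 (grey) declines less.

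Differences between the diets were also read within zones. In the pericentral group the near-identical members had a log2 difference, NASH diet minus chow, of -1.22, in the middle group -1.56 and in the periportal group -1.32. Mup20 had 0.63, 0.51 and 0.19, and Mup3 had -0.062, 0.15 and 0.037. When the score was cut at the same values in both libraries, 34.6% of chow and 31.01% of NASH diet cells were pericentral and 29.4% and 40.2% were periportal. With these common cuts the near-identical members had 28986 CPM on chow and 13266 CPM on the NASH diet in pericentral cells, a log2 difference of -1.13. In middle and periportal cells it was -0.98 and -1.32, beside -1.11 over all cells.

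The makeup of the family's UMIs thus differed by zone and between the libraries. Mup20 gave 62.5% of the 10 members' UMIs in periportal and 14.9% in pericentral cells of the chow library, against 66.2% and 31.97% in those of the NASH diet library. Mup11 and Mup17 gave 30.8% and 24.5% in pericentral chow cells and 16.9% and 15.7% in pericentral NASH diet cells. Their shares in periportal cells were 1.02% and 0.294% in chow, and 0.254% and 0.0975% on the NASH diet. Mup3 kept between 23.02% (pericentral, chow) and 37.4% (middle, chow) in all 6 groups. Over all hepatocyte-like cells Mup20 gave 40.2% on chow and 52.6% on the NASH diet, and Mup11 gave 14.5% and 6.32%.

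**Figure D3:**
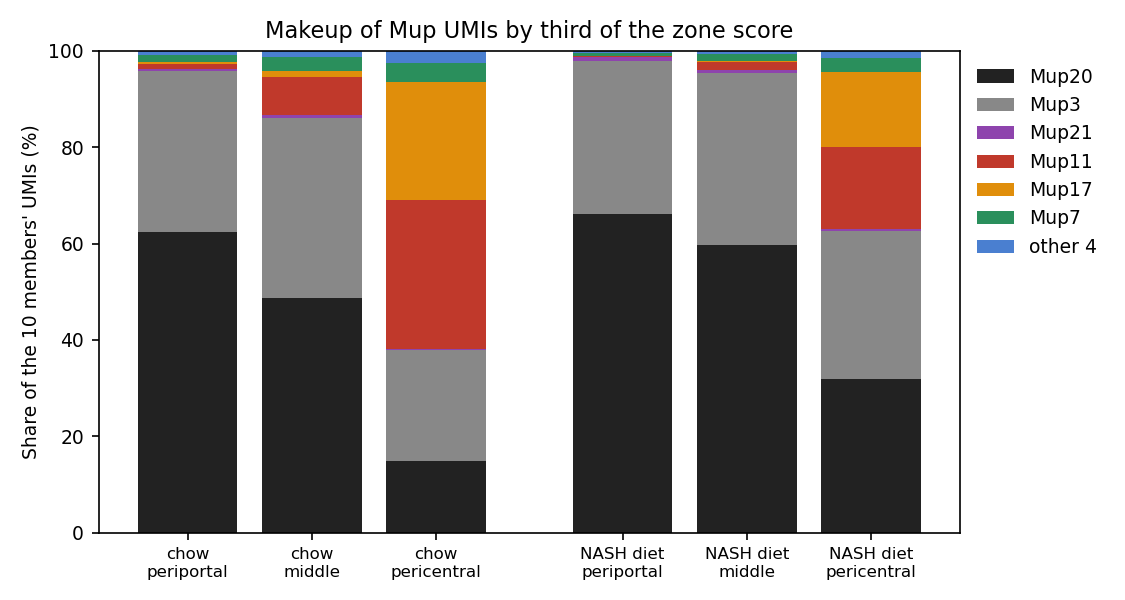
Share of the 10 members' UMIs (%) taken by each member in 3 equal-sized groups of cells by zone score, for the chow library and the NASH diet library; the segment marked other 4 joins Mup1, Mup2, Mup16 and Mup18. Mup20 (black) takes 62.5% in periportal and 14.9% in pericentral chow cells, and Mup11 (red) and Mup17 (orange) fill most of the difference.

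Between cells, the family sum was about as variable as the typical gene while some of its members were among the most variable. After thinning to 5000 UMIs, a chow cell held a mean of 205 ± 86.5 UMIs (SD over 2000 cells) of the 10 members and a NASH diet cell 195 ± 92.9 (SD over 1077 cells). The coefficient of variation was 0.422 and 0.476, against 0.0699 and 0.0716 from Poisson counting alone. The squared coefficient of variation beyond counting was 0.173 and 0.222, close to the medians of 0.181 and 0.238 over genes with a mean of at least 0.5 UMI per thinned cell (1064 and 1151 genes). For Mup17 it was 3.99 and 5.79, above 99.4% and 98.8% of those genes, and for Mup3 0.101 and 0.248, above 23.9% and 51.3%. Mup20 lay between, at 0.532 and 0.555.

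Few hepatocyte-like cells held little Mup RNA. Fewer than 20 family UMIs of 5000 were found in 2 of 2000 chow and 5 of 1077 NASH diet cells. As background, among other barcodes with at least 5000 UMIs, thinned alike, 20 or more were found in 2 of 34 Kupffer-like and 2 of 26 endothelial-like barcodes on chow, and in 0 of 5 and 0 of 35 on the NASH diet. In cells with at least 20, the near-identical members made up a median of 9.503% of the family UMIs in chow, with the 5th percentile at 0.5% and the 95th at 75.01%, and a median of 3.37% on the NASH diet, from 0% to 61.1%. More near-identical than Mup20 UMIs were found in 612 of 667 pericentral chow cells (91.8%, interval 89.4 to 93.7%) and 97 of 666 middle cells (14.6%, 11.97 to 17.5%). In the periportal group it was 0 of 667 chow cells (0%, 0 to 0.552%). Among NASH diet cells this held for 209 of 359 pericentral cells (58.2%, 52.9 to 63.4%) and 5 of 359 middle cells (1.39%, 0.454 to 3.22%). In the periportal group it was 0 of 359 NASH diet cells (0%, 0 to 1.02%).

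**Figure D4:**
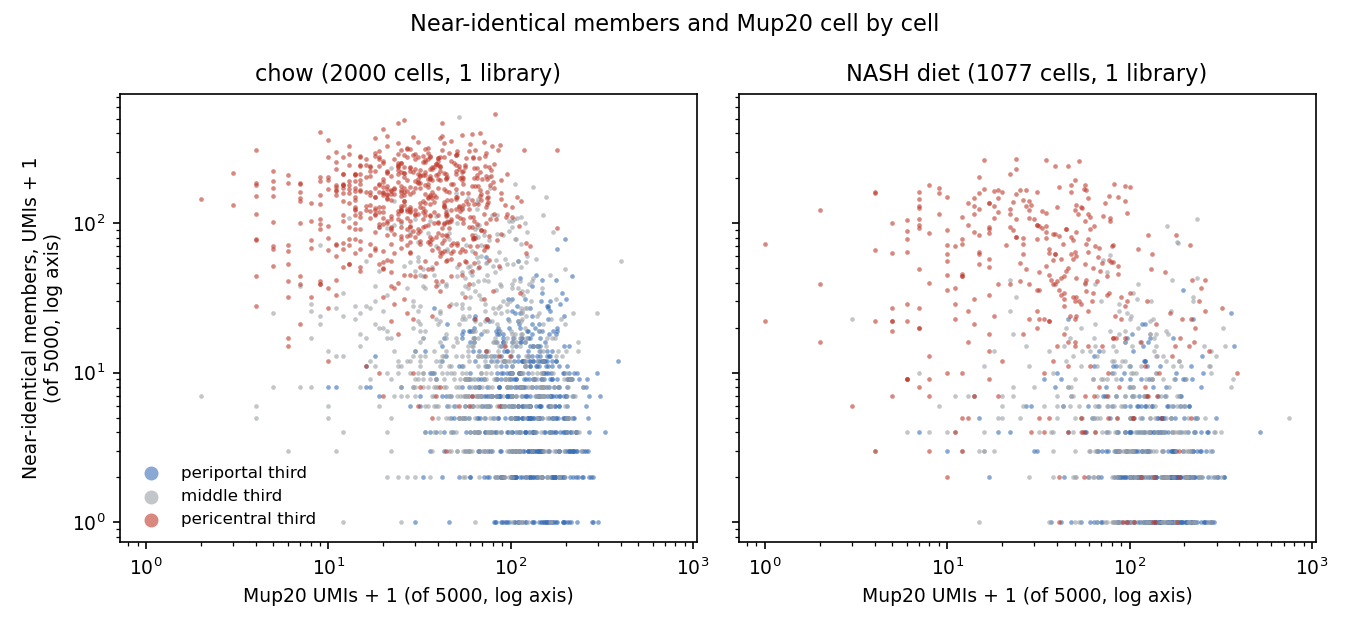
UMIs of the 7 near-identical members against UMIs of Mup20 in each hepatocyte-like cell after thinning to 5000 UMIs (both plus 1, log axes), for 2000 chow cells (left) and 1077 NASH diet cells (right), coloured by zone group. Pericentral cells (red) sit at high near-identical and lower Mup20 counts, periportal cells (blue) at the opposite corner, and the pericentral cells of the NASH diet library reach lower near-identical counts.

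The members were also compared from cell to cell. The values are Spearman's rho over 2000 chow and 1077 NASH diet cells thinned to 5000 UMIs, given as descriptions, since the cells of a library share depth, background RNA and zone. Mup11 with Mup17 gave 0.68 on chow and 0.61 on the NASH diet, and Mup7 with Mup11 gave 0.63 on chow and 0.62 on the NASH diet. Mup20 with Mup3 gave 0.35 on chow and 0.28 on the NASH diet, and Mup3 with Mup21 0.22 on chow and 0.29 on the NASH diet. The near-identical sum against Mup20 gave -0.58 on chow and -0.51 on the NASH diet. Within the pericentral, middle and periportal groups that relation was 0.020, -0.13 and -0.15 in chow, and -0.21, -0.12 and -0.19 on the NASH diet. Most of the opposition of the 2 groups of genes over all cells was thus not present among cells of like zone. Mup3 did not keep to 1 group within zones. The near-identical sum against Mup3 gave 0.27, 0.20 and -0.007 in chow, and 0.37, 0.40 and 0.10 on the NASH diet. Mup20 against Mup3 gave 0.31, 0.27 and 0.17 in chow, and -0.011, 0.32 and 0.28 on the NASH diet. The near-identical sum against the zone score gave 0.79 on chow and 0.73 on the NASH diet, and Mup20 against it -0.71 on chow and -0.59 on the NASH diet. Against the total UMIs of the cell, the near-identical sum gave -0.057 on chow and 0.11 on the NASH diet, and against the mitochondrial share 0.32 on chow and -0.065 on the NASH diet.

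**Figure D5:**
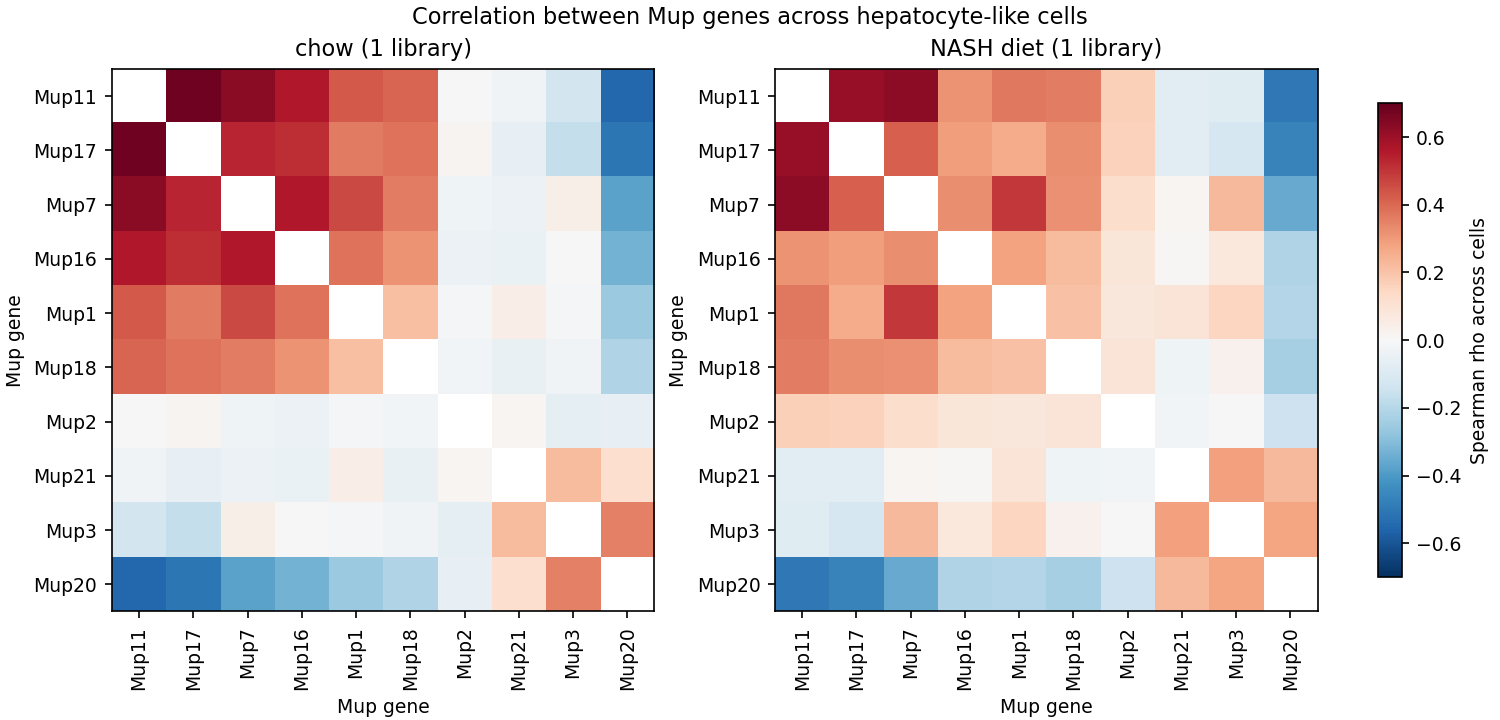
Spearman's rho between each pair of members across hepatocyte-like cells thinned to 5000 UMIs, for the chow library (left) and the NASH diet library (right), on a colour scale from -0.7 (blue) to 0.7 (red). The near-identical members except Mup2 form a red block led by Mup11, Mup17 and Mup7, and Mup20 is blue against them and red against Mup3 and Mup21.

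Mup UMIs also occurred in barcodes of other cells. The 10 members summed to 2226 CPM in 70 Kupffer-like and 2733 CPM in 50 endothelial-like barcodes of the chow library, 5.48% and 6.72% of the hepatocyte level. The NASH diet sums were 3337 CPM in 38 Kupffer-like and 1080.3 CPM in 50 endothelial-like barcodes, 8.65% and 2.801%. After thinning to 1000 UMIs, Mup20 had a UMI in 1960 of 2000 chow hepatocyte-like cells (98%) and in 18 of 58 Kupffer-like barcodes (31.03%), with 12 shallower ones left out. Without thinning, these shares were 100% and 80%, at median depths of 25805 and 4941 UMIs. For Mup17 the thinned shares were 37.9% and 25.9% in chow, and 24.4% and 22.2% on the NASH diet, where the Kupffer-like interval ran from 8.62 to 42.3%. A UMI of Mup17 alone therefore did not mark a hepatocyte at this depth.

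In barcodes of 500 to 1500 UMIs (1925 in chow, 786 on the NASH diet) the family reached 34292 and 17108 CPM, 84.3% and 44.4% of the hepatocyte level. In the chow library the near-identical members were higher there (15587 CPM) than in hepatocyte-like cells (11838 CPM), Mup1 most of all (699.6 against 261 CPM), and Mup20 was lower (8722 against 16331 CPM). The near-identical sum and Mup20 were both lower in the low-UMI barcodes of the NASH diet library, at 3024 and 7235 CPM. Mup1 (211 against 169.8 CPM) and Mup16 (124 against 118 CPM) were higher there, and the other near-identical members were lower. Mup21 was higher in low-UMI barcodes on chow (315 against 182 CPM) and lower on the NASH diet (183 against 233 CPM). Mup3 was lower in both libraries. RNA free of cells may reach every barcode, and its part in the levels of single cells was not tested.

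The upstream pathway of the family was read from lists of genes. Over all 7899 genes that passed the filter, 2.15% were at least 2-fold lower on the NASH diet and 2.87% were higher. Of 11 growth hormone signalling genes, 11 passed the filter, 2 were at least 2-fold lower on the NASH diet and 1 was higher, with a list median of 0.12 beside 0.13 over all genes. The lower genes were Socs3 (62.6 CPM in chow, 19.2 on the NASH diet, log2 difference -1.65) and Socs2 (37.8 and 16.5 CPM, -1.15), which encode inhibitors of cytokine receptor signalling that the pathway itself induces. Bcl6, a repressor that competes with STAT5 in male liver, was at 7.55 and 24.9 CPM (1.60). The receptor gene Ghr had 273 and 432 CPM (0.66), the transducer Stat5b 20.5 and 17.4 CPM (-0.22) and the target Igf1 812 and 883 CPM (0.12), none of them past 2-fold. Of 13 transcriptional regulators, 12 passed the filter, 0 were lower and 1 was higher, Ppara, the fatty acid-sensing receptor gene, at 33.2 and 84.8 CPM (1.33), with a list median of 0.16.

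Of 11 other genes known to be male-biased in mouse liver, 11 passed the filter, 2 were lower and 1 was higher. The list median was 0.038, beside 0.13 over all genes, of which 2.15% were lower and 2.87% higher. Serpina1e, a protease inhibitor gene, had 13907 CPM on chow and 2747 on the NASH diet (-2.34), Elovl3, a fatty acid elongase gene, 149.6 and 49.3 CPM (-1.58), and Cyp4a12b, a fatty acid hydroxylase gene, 23.03 and 110.2 CPM (2.21). Of 13 female-biased genes 1 passed the filter, the thioesterase gene Acot3, at 0.916 and 15.8 CPM (3.13); it passed through its NASH diet level alone, so the filter set its direction. Serpina1e and Cyp4a12b belong to families of near-identical genes whose reads can also be split.

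For the next 2 lists too, the values over all genes were 2.15% lower, 2.87% higher and a median of 0.13. Among 11 other lipocalins, 8 passed the filter, 3 were lower and 0 were higher, with a list median of -0.90. The lower ones were Orm2 (696 and 29.3 CPM, -4.52) and Orm1 (6062 and 929 CPM, -2.71), which encode the acute-phase orosomucoids, and Lcn2 (2141 and 105 CPM, -4.34), which encodes an iron-binding acute-phase protein. Rbp4, the retinol carrier gene, had 2594 and 4430.3 CPM (0.77). Of 20 abundant secreted plasma proteins, 20 passed the filter, 5 were lower and 0 were higher, with a list median of -0.11. They were the genes of the heme carrier Hpx (-2.20), the hemoglobin carrier Hp (-2.17) and the fibrinogen chains Fga (-1.67), Fgg (-1.59) and Fgb (-1.57). In the chow library, Alb at 25327 CPM was the only gene of this list above Mup20.

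No other gene followed the family sum closely from cell to cell. The sum joins members of opposite zonation, and its rho against the zone score was 0.12 on chow and -0.24 on the NASH diet. Parts of it had larger values: against Alb, the near-identical sum gave -0.66 on chow and -0.60 on the NASH diet. Mup20 against Alb gave 0.60 on chow and 0.47 on the NASH diet. Of 966 genes with a mean of at least 0.5 UMI per thinned cell in each library, the 5 with the highest rho against the summed members in both libraries were Serpina3k (0.20 and 0.21 on chow and NASH diet), Mgst1 (0.31 and 0.17), Rbp4 (0.22 and 0.17), mt-Co1 (0.20 and 0.16) and Arl6ip1 (0.17 and 0.14). The 5 lowest were H3f3b (-0.17 and -0.17), Rps18 (-0.16 and -0.17), Rpl9 (-0.18 and -0.14), Adk (-0.14 and -0.16) and Rpl37a (-0.14 and -0.14). Values for the sum as weak as these are no finding, and what makes them weak was not tested.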

How the data were processed

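The deposited files hold raw UMI counts for each gene in each barcode, not normalized, and they came, per the file headers, from Cell Ranger 3.0.2. The submitters' processing notes name Cell Ranger 3.1.0, Seurat and the build mm10. The annotation, and how reads shared by near-identical genes were treated, are not stated in any source used here. The labels name the 10x 3' kit, version 3.

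Each library's own matrix was used. A merged matrix with fewer chow UMIs served as an alternative. Counts were summed over hepatocyte-like barcodes and scaled to 1000000 UMIs (CPM), with a pseudocount of 1 CPM for log2 values. Where cells were compared singly they were thinned (seed 0). No doublet caller was run; barcodes with markers of other cells were left out by the gate (75 chow and 64 NASH diet barcodes over that limit), and doublets of hepatocytes were kept, with the 5% deepest barcodes left out as an alternative. Computation used Python 3.11.15, numpy 2.4.6, scipy 1.17.1, pandas 2.3.3 and Biopython 1.88. The scripts were tested on simulated data. The genes named are the 10 members, list genes past 2-fold (at most 4 a list), and the 5 highest and 5 lowest genes of the likeness search. Ghr, Stat5b, Igf1, Rbp4 and Fgb were added, and Alb and Cyp3a11 singled out among the list genes, after their values were seen. The members and lists were chosen with earlier results of these data known. Protein sequences were not used here.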

Additional observations from a re-analysis of the deposited data

Results flagged for a closer look

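The sum of all 10 members leaned to opposite ends of the lobule in the libraries, with a log2 difference, pericentral minus periportal, of 0.23 on chow and -0.35 on the NASH diet. It drew attention because the sign differs between the diets, but each diet is 1 library and this difference was not tested. Without Mup20 in the sum both values were above 0.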

How the results depend on the processing

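Each diet had 1 library, so no replicate could be left out. No paired analysis was possible because each group has 1 sample. The near-identical sum stayed lower on the NASH diet in 14 of 14 alternatives and higher in pericentral cells in 11 of 11 in each library. Some alternatives were added after seeing the data: all those for the near-identical sum and single members, and the adding of the other near-identical genes. The log2 difference of the family sum between diets (-0.076) was -0.070 with a minimum of 10000 UMIs, -0.091 with a minimum of 2000 UMIs, 0.74 with a mitochondrial limit of 10% and -0.089 with a limit of 50%. It was -0.12 with no such limit, -0.050 with the 5% deepest cells left out, -0.41 with Mup20 left out and -0.069 with means over cells. It was -0.016 with scaling without mitochondrial UMIs, -0.20 with the median of all genes taken off and -0.017 with the merged matrix. That of the near-identical sum (-1.11) was -1.13 with a minimum of 2000 UMIs, -1.43 with a mitochondrial limit of 10%, -1.18 with a limit of 50% and -1.21 with no such limit. It was -1.24 with the 5% deepest cells left out, -1.27 with means over cells, -1.05 with scaling without mitochondrial UMIs and -1.23 with the median of all genes taken off. It was -0.996 with the merged matrix and -1.05 with the other near-identical genes added. The zone difference of the family sum in chow (0.23) was 0.27 with a minimum of 2000 UMIs, 0.089 with a mitochondrial limit of 10%, 0.24 with a limit of 50% and 0.26 with no such limit. It was 0.22 with the 5% deepest cells left out, 1.41 with Mup20 left out, 0.22 with common zone cuts and 0.24 with a z-scored zone score. It was 0.22 with a score without Cyp2e1 and Cyp2f2, 0.18 with only the outer bins of 10 and 0.25 with the other near-identical genes added. That on the NASH diet (-0.35) was -0.39 with a minimum of 10000 UMIs, -0.39 with a minimum of 2000 UMIs, -1.21 with a mitochondrial limit of 10% and -0.37 with a limit of 50%. It was -0.38 with no such limit, -0.38 with the 5% deepest cells left out, 0.66 with Mup20 left out and -0.34 with common zone cuts. It was -0.33 with a z-scored zone score, -0.36 with a score without Cyp2e1 and Cyp2f2, -0.50 with only the outer bins of 10 and -0.32 with the other near-identical genes added. The zone difference of the near-identical sum in chow (4.28) was 4.32 with a minimum of 10000 UMIs, 4.25 with a minimum of 2000 UMIs, 3.11 with a mitochondrial limit of 10% and 4.34 with a limit of 50%. It was 4.31 with no such limit, 4.24 with common zone cuts, 4.34 with a z-scored zone score and 4.85 with only the outer bins of 10. It was 4.01 with the other near-identical genes added. That on the NASH diet (4.38) was 4.49 with a minimum of 10000 UMIs, 4.21 with a minimum of 2000 UMIs, 2.68 with a mitochondrial limit of 10% and 4.30 with a limit of 50%. It was 4.22 with no such limit, 4.25 with the 5% deepest cells left out, 4.43 with common zone cuts and 4.50 with a z-scored zone score. It was 4.29 with a score without Cyp2e1 and Cyp2f2, 5.33 with only the outer bins of 10 and 3.96 with the other near-identical genes added. The coefficient of variation in chow (0.422) was 0.398 with a minimum of 10000 UMIs, 0.481 with a minimum of 2000 UMIs, 0.926 with a mitochondrial limit of 10% and 0.699 with Mup20 left out. It was 0.3802 with a robust estimate. That on the NASH diet (0.476) was 0.4295 with a minimum of 10000 UMIs, 0.562 with a minimum of 2000 UMIs, 0.948 with a mitochondrial limit of 10% and 0.516 with no such limit. It was 0.617 with Mup20 left out and 0.417 with a robust estimate. With the limit of 10% only 156 chow and 126 NASH diet cells were left, and the sign of the family sum between diets turned. Leaving out Mup20 turned the sign of the zone difference of the family sum on the NASH diet. The number of members past 2-fold between diets, 2, was 4 with the mitochondrial limit of 10% and 6 with a 1.5-fold limit. With the 10% limit these were Mup11 and Mup17, lower on the NASH diet, and Mup20 and Mup21, higher. The share of all genes was not counted at these 2 settings, so neither count can be set against it. The Mup3 difference between diets turned to -0.10 with the median of all genes taken off. The cause of these shifts was not tested.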
